A study of Homo sapiens with 16 samples.

Results

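The nuclear lamina and the inner nuclear membrane were followed through 10 genes: LMNB1, LMNB2, LMNA, LBR, TMPO, EMD, LEMD3, SUN1, SUN2 and BANF1. They were picked by gene symbol and are 10 of the 58735 gene IDs in the count tables. Messenger RNA was sequenced from MDA-MB-231 and SUM159PT, 2 established lines that the labels describe as wild-type triple negative breast cancer cells. MDA-MB-231 was grown in an RPMI medium and SUM159PT in a Ham's F12 medium. In each line, cells received an siRNA against YES1, a kinase of the Src family (siYES1), or an siRNA against firefly luciferase (siNS), with Lipofectamine2000, and the time point is 48 h. Each of the 4 groups has 4 libraries, 16 in all. The design text calls them technical replicates, and no label says that they came from separate cultures, so spreads and p-values measure these libraries alone. The columns of the SUM159PT table begin with S149, and whether the cells are SUM159PT was not tested beyond the labels.

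The 10 genes were proposed with the effect of siYES1 on them already known. Their changes with siYES1 are therefore given as a description, with no p-value, and nothing is read from how many were called. The difference between the lines under siNS was not used to choose them and was tested.

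The lamina is a meshwork of intermediate filaments under the inner nuclear membrane. LMNB1 and LMNB2 encode the B-type lamins, which keep a farnesyl lipid on their tail and stay bound to the membrane. LMNA encodes lamins A and C through alternative splicing, and these give the nucleus much of its stiffness. Proteins of the inner membrane hold the lamina and chromatin together: LBR binds lamin B and heterochromatin, and TMPO (LAP2), EMD (emerin) and LEMD3 (MAN1) share the LEM domain that binds BANF1 (BAF), a small protein that bridges DNA. SUN1 and SUN2 reach across the space between the nuclear membranes to the nesprins and so tie the lamina to the cytoskeleton. In mitosis the lamins are phosphorylated and come apart, and the envelope is rebuilt around the daughter nuclei.

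Libraries held 15680459 to 23451253 counts. YES1 fell from 61.6 ± 6.83 to 13.0 ± 0.81 CPM (counts scaled to a common library total with TMM factors; mean ± SD, n = 4) in MDA-MB-231 and from 139 ± 25.01 to 18.0 ± 1.85 CPM in SUM159PT, which left 21.1% and 13.0%. Of the receptors that triple negative status refers to, PGR and ESR1 were at or near 0. Group means were 0 to 0.03 CPM for PGR, 0.03 to 0.52 CPM for ESR1 and 66.9 to 116 CPM for ERBB2 (HER2). These are RNA levels, and HER2 protein was not measured. The summed level of VIM, CD44, KRT8 and KRT18, markers of such carcinoma lines, ran from 2001 to 3502 CPM. With siYES1, 3 of these 4 were called higher and 1 was not called in MDA-MB-231, and 2 were higher and 2 lower in SUM159PT. Under siNS, 1 was called higher and 3 lower in SUM159PT than in MDA-MB-231. Summed markers of other cell types were lower with siYES1 than with siNS in every library: 5 leukocyte markers spanned 8.50 to 9.80 CPM with siNS and 2.38 to 3.77 with siYES1 in MDA-MB-231, and 3.68 to 5.50 and 0.39 to 1.32 in SUM159PT. For 4 endothelial markers these ranges were 7.35 to 12.1 and 4.36 to 6.67 CPM in MDA-MB-231, and 16.4 to 25.05 and 1.81 to 2.42 in SUM159PT. For 4 fibroblast markers they were 20.7 to 24.5 and 7.58 to 8.52, and 55.4 to 94.7 and 42.1 to 46.7. Single markers did not all go with the sums. Of the 2 leukocyte markers tested in MDA-MB-231, 1 was called higher with siYES1 and 1 lower. Of the 2 fibroblast markers tested in each line, 1 was called lower and 1 was not called. The 2 leukocyte markers tested in SUM159PT and the 2 endothelial markers tested in each line were called lower. CD3E was at 0 in 3 of the 4 groups, PTPRC and LYZ in SUM159PT siYES1, CDH5 was at 0 in MDA-MB-231 siNS and SUM159PT siYES1, DCN in MDA-MB-231 siNS and LUM in both SUM159PT groups. What part these transcripts have in the results was not tested. In SUM159PT, siNS replicate 1 stood apart from the other 3 siNS libraries on the second principal component (47.6 against -32.9 to -11.1). In that library 6 of the 10 genes (LMNB1, LMNB2, LBR, TMPO, SUN1 and BANF1) had the highest level of the group, 3 (LMNA, EMD and SUN2) the lowest, and LEMD3 lay between. How many of all genes were highest or lowest in it was not counted. The fold changes of the 10 genes in SUM159PT and the counts for the lists are given with and without it, and the levels and shares without it were added after seeing the data. In MDA-MB-231 the siNS libraries also spread on the second component, with replicates 1 and 2 at 14.3 and 21.1 and replicates 3 and 4 at -16.9 and -18.7. LMNB2 and SUN2 followed that division, both lower in replicates 1 and 2, and the other 8 genes overlapped across it. What lies behind it was not tested.

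The tail of a lamin decides whether it is farnesylated, and 4 coding ends are shown because the counts add lamin A and lamin C into 1 value. Each is the last 15 coding bases before the stop codon, 5′ to 3′ in the sense of the gene, from GENCODE 29 transcripts on GRCh38. Capitals mark the cysteine codon that takes the farnesyl group.
LMNB1-201, chromosome 5, plus strand, 586 codons: agcTGTgcaattatg
LMNB2-201, chromosome 19, minus strand, 620 codons: ggcTGCtacgtgatg
LMNA-206, prelamin A, chromosome 1, plus strand, 664 codons: aacTGCagcatcatg
LMNA-207, lamin C, chromosome 1, plus strand, 572 codons: agtggtagccgccgc
The 3 farnesylated lamins carry the cysteine codon at the same place, and lamin C does not. Mature lamin A loses this end again to the protease ZMPSTE24.

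Sequences before the gene start are shown for LMNB1, LMNA and TMPO, which were higher with siYES1 in MDA-MB-231, and for LBR, which was lower. They come from RefSeq's windows on GRCh38.p14, in the direction of the gene, and stop where the GENCODE gene begins. Capitals mark CCAAT (or ATTGG on the other strand), the CCAAT box that NF-Y binds, TTTGAA or TTTAAA, the letters of the cell cycle homology region of many G2/M promoters, and TTTCCCGC or GGCGGGAA, which are forms of the E2F motif.
LMNB1, chr5:126776373-126776622, plus strand: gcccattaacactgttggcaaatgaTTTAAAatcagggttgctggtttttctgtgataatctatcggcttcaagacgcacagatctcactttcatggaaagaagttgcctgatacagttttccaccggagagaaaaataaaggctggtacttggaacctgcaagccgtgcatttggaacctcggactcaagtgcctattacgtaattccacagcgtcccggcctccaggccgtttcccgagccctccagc
LMNA, chr1:156082323-156082572, plus strand: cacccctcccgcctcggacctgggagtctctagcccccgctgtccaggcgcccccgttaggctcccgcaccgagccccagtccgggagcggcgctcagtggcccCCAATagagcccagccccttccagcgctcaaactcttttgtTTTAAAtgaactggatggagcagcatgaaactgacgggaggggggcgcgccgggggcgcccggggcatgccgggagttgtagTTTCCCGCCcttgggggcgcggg
TMPO, chr12:98515323-98515511, plus strand: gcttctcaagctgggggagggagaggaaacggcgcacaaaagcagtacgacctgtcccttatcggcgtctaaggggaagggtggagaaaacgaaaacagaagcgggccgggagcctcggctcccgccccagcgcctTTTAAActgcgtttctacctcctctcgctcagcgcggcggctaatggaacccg
LBR, chr1:225428926-225429071, minus strand: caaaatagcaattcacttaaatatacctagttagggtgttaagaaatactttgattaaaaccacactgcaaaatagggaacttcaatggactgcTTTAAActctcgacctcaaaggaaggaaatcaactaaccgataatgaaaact

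The motifs were searched on both strands in the 250 bases before each RefSeq start, and 9 of the 10 genes had a window (all but SUN1). CCAAT was found for 6 of the 9 (EMD, LEMD3, LMNA, LMNB1, SUN2 and TMPO), against 40.5% of 14896 coding genes and 15 of 15 G2/M genes with a window. The LMNB1 and TMPO matches lie past the GENCODE gene start, so they are not in the letters above. TTTGAA or TTTAAA was found for 7 of the 9 (all but EMD and LEMD3), against 22.7% of coding genes and 12 of 15 G2/M genes. TTTCGCGC, TTTGGCGC or TTTCCCGC was found for LEMD3 and LMNA, against 3.83% of coding genes, and GGCGGGAA, which in LMNA overlaps the match to TTTCCCGC, for LMNA alone, against 4.62%. LBR, whose level was lower with siYES1, holds the TTTAAA letters too, so they did not separate the genes by the sign of their change. A match is a run of letters, and binding was not measured.

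The B-type lamin LMNB1 had the largest change of the 10 genes in both lines. In MDA-MB-231 it stood at 38.3, 31.8, 45.8 and 32.1 CPM in the 4 siNS libraries and at 175, 174, 177 and 169 CPM with siYES1. The siYES1 libraries lay far above every siNS library and close to each other. LMNB1 rose by 2.28 ± 0.10 on the log2 scale (SE, n = 4 per group), or 4.85-fold. In SUM159PT the siNS libraries held 46.5, 21.4, 20.7 and 22.2 CPM and the siYES1 libraries 58.4, 60.3, 65.8 and 63.6 CPM. The groups did not overlap, and siNS replicate 1 lay between the rest of its group and the siYES1 libraries. The rise was 1.15 ± 0.22 (2.22-fold), and 1.51 ± 0.09 without that library.

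LMNB2, the other B-type lamin gene, rose by less. It read 322, 302, 428 and 403 CPM with siNS and 665, 672, 622 and 627 CPM with siYES1 in MDA-MB-231, where its log2 fold change was 0.87 ± 0.10. In SUM159PT it read 296, 228, 234 and 243 CPM with siNS and 333, 351, 340 and 353 CPM with siYES1, a log2 fold change of 0.45 ± 0.09 (0.53 ± 0.05 without siNS replicate 1). The groups did not overlap in either line, and the MDA-MB-231 value lay between 0.80 and 0.97 when any 1 library was left out.

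LMNA, which gave the highest count of the 10 genes, rose by a like amount in the 2 lines. In MDA-MB-231 its siNS libraries held 898, 1099, 1097 and 1173 CPM and its siYES1 libraries 1570, 1597, 1584 and 1597 CPM, a log2 fold change of 0.62 ± 0.08. In SUM159PT they held 731, 900, 864 and 874 CPM against 1333, 1372, 1223 and 1330 CPM, a log2 fold change of 0.63 ± 0.07 (0.56 ± 0.05 without siNS replicate 1). All siYES1 libraries lay above all siNS libraries of their line, and the counts do not tell lamin A from lamin C.

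**Figure D1:**
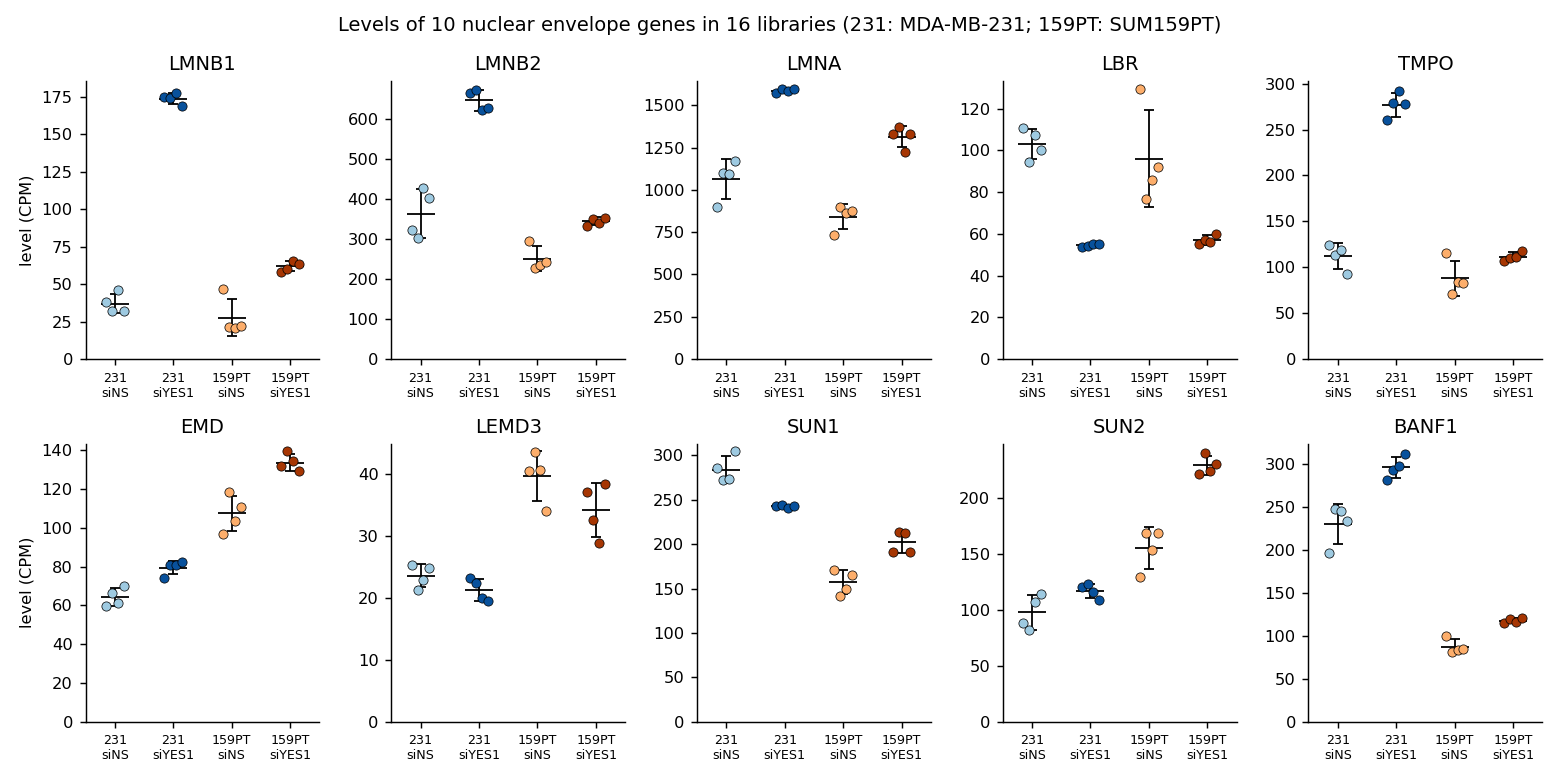
Level of each of the 10 genes in CPM on TMM-scaled library sizes (vertical axes, linear from 0, a scale for each gene) in the 16 libraries, by line and siRNA; points are libraries, black bars the mean and SD of 4. LMNB1 libraries sit at 31.8 to 45.8 CPM with siNS and 169 to 177 CPM with siYES1 in MDA-MB-231, and LBR is lower with siYES1 in both lines.

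LBR moved the other way. This membrane protein binds B-type lamins and heterochromatin and is also a sterol reductase of cholesterol synthesis. In MDA-MB-231 it stood at 111, 94.3, 107 and 100.2 CPM with siNS and at 53.9, 54.0, 55.0 and 55.3 CPM with siYES1, and it fell by 0.87 ± 0.07 on the log2 scale, to 52.9% of its siNS mean. In SUM159PT it stood at 129, 76.5, 85.9 and 91.8 CPM against 55.0, 56.9, 56.2 and 60.1 CPM, and it fell by 0.76 ± 0.14, to 59.5%, or by 0.59 ± 0.08 without siNS replicate 1. The siYES1 libraries of both lines lay together at 53.9 to 60.1 CPM, below every siNS library.

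TMPO encodes the LAP2 proteins, which bind lamins, BANF1 and chromatin. In MDA-MB-231 it read 124, 113, 119 and 92.3 CPM with siNS and 260, 279, 292 and 277 CPM with siYES1, and it rose by 1.35 ± 0.09 on the log2 scale (2.55-fold). In SUM159PT it read 115, 70.5, 84.3 and 82.4 CPM against 107, 110, 111 and 118 CPM. There the groups overlapped through siNS replicate 1, and TMPO was not called (log2 fold change 0.32 ± 0.12). Without that library it was called, at 0.47 ± 0.07. Its isoforms, some of which are bound to the membrane and some not, share this count.

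Of the other LEM-domain genes, EMD rose a little in both lines and LEMD3 was called in neither. EMD encodes emerin, which is lost in Emery-Dreifuss muscular dystrophy. Its siNS libraries spanned 59.5 to 69.9 CPM and its siYES1 libraries 74.3 to 82.2 CPM in MDA-MB-231 (log2 fold change 0.35 ± 0.08), and 97.0 to 118 and 129 to 139 CPM in SUM159PT (0.30 ± 0.08, and 0.25 ± 0.07 without siNS replicate 1). LEMD3 encodes MAN1, which holds back SMAD signalling at the inner membrane. Its libraries spanned 21.2 to 25.2 CPM with siNS and 19.5 to 23.1 with siYES1 in MDA-MB-231 (log2 fold change -0.10 ± 0.09), and 34.0 to 43.5 and 28.8 to 38.3 CPM in SUM159PT (-0.23 ± 0.12, and -0.22 ± 0.11 without siNS replicate 1). The LEMD3 groups overlapped in both lines.

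The SUN-domain genes differed from each other. SUN1 held 286, 272, 273 and 305 CPM with siNS and 244, 245, 240 and 243 CPM with siYES1 in MDA-MB-231, and was called lower at a log2 fold change of -0.18 ± 0.06. That small call was lost without siNS replicate 4 (-0.15) and without siYES1 replicate 1, 2, 3 or 4 (-0.18 in each). In SUM159PT SUN1 held 171, 142, 150 and 166 CPM with siNS against 191, 214, 213 and 192 CPM, a rise of 0.35 ± 0.08 (0.39 ± 0.07 without siNS replicate 1). SUN1 was the only one of the 10 genes called in opposite directions in the 2 lines.

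SUN2, its partner in the bridge to the cytoskeleton, was called higher in both. In MDA-MB-231 it read 87.9, 81.8, 107 and 115 CPM with siNS and 121, 123, 116 and 109 CPM with siYES1, and the groups overlapped (log2 fold change 0.30 ± 0.10, and 0.23 to 0.38 when any 1 library was left out). In SUM159PT it read 130, 169, 153 and 169 CPM against 221, 240, 224 and 230 CPM, with no overlap (0.55 ± 0.09, and 0.47 ± 0.06 without siNS replicate 1). BANF1, the DNA-bridging partner of the LEM domain, rose in both lines: from 197 to 247 CPM with siNS up to 282 to 312 CPM in MDA-MB-231 (0.40 ± 0.08), and from 81.7 to 99.9 up to 115 to 120.3 CPM in SUM159PT (0.41 ± 0.08, and 0.48 ± 0.06 without siNS replicate 1).

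**Figure D2:**
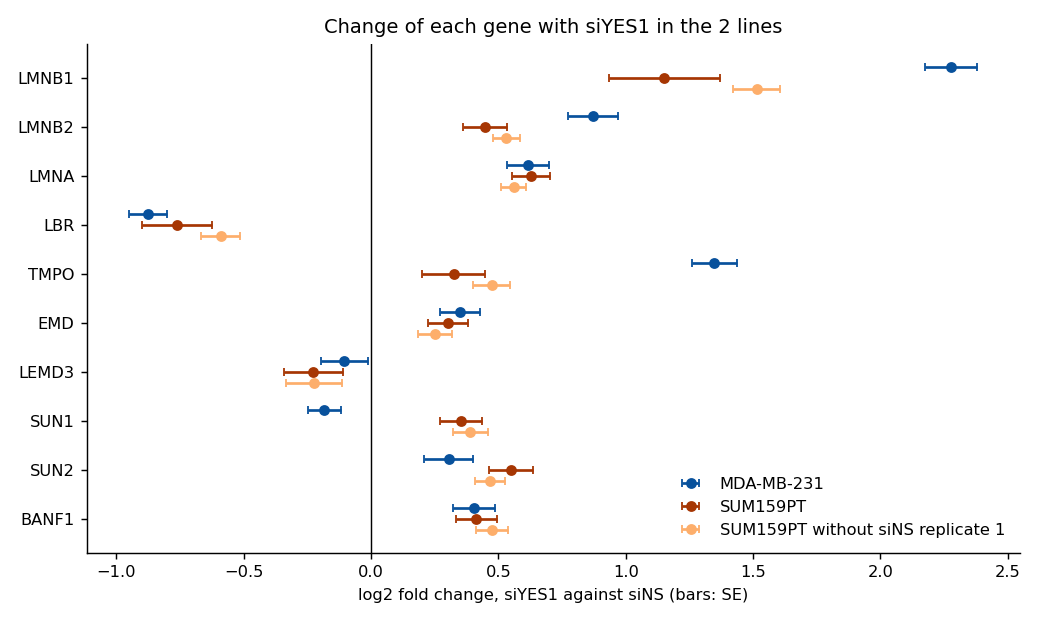
Log2 fold change of siYES1 against siNS (horizontal axis, bars SE) for each gene in MDA-MB-231, in SUM159PT, and in SUM159PT without siNS replicate 1. LMNB1 lies farthest to the right in all 3 fits (2.28, 1.15 and 1.51), LBR lies left of 0 in each, and SUN1 lies on opposite sides of 0 in the 2 lines.

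Calls were made with edgeR's quasi-likelihood test at an adjusted p (Benjamini-Hochberg, over every gene tested) below 0.05, and all 10 genes passed the filter on low counts in each comparison. In MDA-MB-231, 7 were called higher, 2 lower and 1 was not called, where 24.9% of the 14319 genes tested were called higher and 27.5% lower, 52.4% in all. In SUM159PT 7 were called higher, 1 lower and 2 not, where 17.7% of 14469 were higher and 19.0% lower, 36.8% in all. Without siNS replicate 1 the counts in SUM159PT were 8 higher and 1 lower, in a fit that called 6237 of all genes, where 5321 were called with it. The shares called are those of the fit with every library and TMM scaling. LMNB1, LMNB2, LMNA, EMD, SUN2 and BANF1 were called higher in both lines and LBR lower in both. The siNS and siYES1 libraries did not overlap for 8 of the 10 genes in each line, where the same held for 46.8% of all genes tested in MDA-MB-231 and 37.0% in SUM159PT. The median log2 fold change of the 10 was 0.38 in each line, beside 0.00 in MDA-MB-231 and -0.03 in SUM159PT over all genes tested. All of this comes from the contrasts that chose the genes. With total counts as the scaling in SUM159PT, which moved the median of all genes to -0.20, 4 of the 10 were called higher and 2 lower: LMNB1 stood at 0.97 and LBR at -0.94, LEMD3 was called at -0.40, and SUN1 (0.18), EMD (0.14) and BANF1 (0.24) were no longer called.

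The 2 lines differed in how far 3 of the genes moved, in a fit of all 16 libraries in which 24.3% of 16299 genes were called for such a difference. The log2 fold change of LMNB1 was lower in SUM159PT than in MDA-MB-231 by a difference of -1.03 ± 0.25 (SE), and that of TMPO by -0.93 ± 0.16. That of SUN1 was higher, by 0.63 ± 0.10. Without SUM159PT siNS replicate 1 these were -0.72 ± 0.14, -0.83 ± 0.12 and 0.61 ± 0.10, all still called. The other 7 genes were not called for a difference, with values from -0.33 ± 0.14 for LMNB2 to 0.34 ± 0.14 for SUN2. LBR (0.21 ± 0.16) was called at 0.33 without SUM159PT siNS replicate 1, and LMNB2 at -0.41 without MDA-MB-231 siNS replicate 3. SUN2 was called at 0.40 without MDA-MB-231 siNS replicate 1, at 0.42 without replicate 2 of that group and at 0.39 without SUM159PT siNS replicate 2. The difference shares its libraries with the 2 contrasts that chose the genes and is a description as well.

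Under siNS the lines could be compared by a contrast that was not used for the choice, although its libraries are the same siNS libraries. Line, medium and count table go together here and cannot be told apart. By edgeR's quasi-likelihood test, 3 of the genes were higher in SUM159PT, 4 lower and 3 not called, and 73.8% of the 15411 genes tested were called, so 7 of 10 is near the share of all genes. BANF1 was lower in SUM159PT at 87.6 ± 8.33 CPM, against 231 ± 23.3 CPM (mean ± SD, n = 4; log2 difference -1.34 ± 0.11 SE, edgeR adjusted p = 4.74e-08). SUN1 was lower as well, at 157 ± 13.6 against 284 ± 15.3 CPM (-0.80 ± 0.10, edgeR adjusted p = 2.77e-06), while its partner SUN2 was higher, at 155 ± 18.4 against 97.8 ± 15.5 CPM (0.72 ± 0.13, edgeR adjusted p = 0.000122). The 4 SUM159PT libraries lay outside the range of the 4 MDA-MB-231 libraries for each of these genes.

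The LEM-domain genes EMD and LEMD3 were both higher in SUM159PT under siNS. EMD stood at 107 ± 9.27 against 64.2 ± 4.79 CPM (log2 difference 0.80 ± 0.11, edgeR adjusted p = 7.72e-06) and LEMD3 at 39.6 ± 3.98 against 23.5 ± 1.86 CPM (0.81 ± 0.13, edgeR adjusted p = 3.52e-05). Of the lamins, LMNB2 was lower in SUM159PT at 250.3 ± 31.1 against 364 ± 61.4 CPM (-0.48 ± 0.13, edgeR adjusted p = 0.00324). LMNA was lower at 842 ± 75.7 against 1066 ± 118 CPM, with overlapping libraries (-0.29 ± 0.11, edgeR adjusted p = 0.0266). The LMNA call was lost without MDA-MB-231 siNS replicate 3 (-0.28) or 4 (-0.25) and without SUM159PT siNS replicate 1 (-0.19) or 3 (-0.29).

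LMNB1, TMPO and LBR were not called between the lines under siNS. LMNB1 had 27.7 ± 12.5 CPM in SUM159PT and 37.0 ± 6.57 in MDA-MB-231 (log2 difference -0.36 ± 0.23, edgeR adjusted p = 0.174). Its call turned on the filter and on 1 library. With no filter LMNB1 was called at -0.41 (edgeR adjusted p = 0.0171). Without SUM159PT siNS replicate 1 the log2 difference was -0.70 ± 0.14 (edgeR adjusted p = 0.000185). TMPO had 88.1 ± 19.1 and 112 ± 13.96 CPM (-0.29 ± 0.15, edgeR adjusted p = 0.0821). It was called without that same library (-0.41, edgeR adjusted p = 0.00316) and without MDA-MB-231 siNS replicate 4 (-0.39, edgeR adjusted p = 0.0329). LBR had 95.9 ± 23.2 and 103 ± 7.29 CPM (-0.05 ± 0.14, edgeR adjusted p = 0.764).

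**Figure D3:**
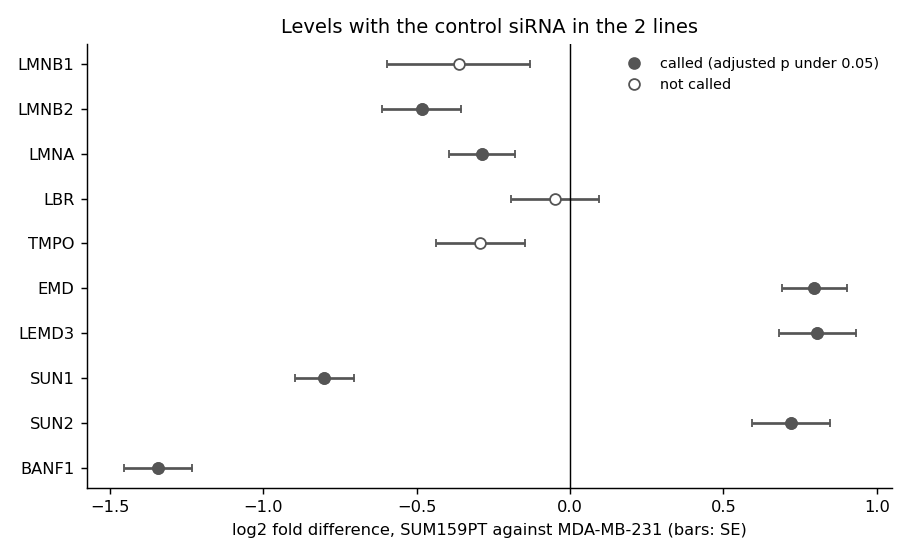
Log2 fold difference of SUM159PT against MDA-MB-231 in the siNS libraries (horizontal axis, bars SE) for the 10 genes; filled points were called by edgeR over all genes, open points were not. EMD, LEMD3 and SUN2 lie right of 0 at 0.72 to 0.81, and BANF1 lies farthest left at -1.34.

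Levels can be compared between genes only per length, here as CPM per kb of the gene's GENCODE 29 exons. These exons are joined over all annotated transcripts (6985 bases for LMNA, 11811 for SUN1 and 3633 for LMNB1). Which transcripts were expressed was not measured, so the order and the lamin shares hold for these lengths only. In MDA-MB-231 siNS libraries LMNA led with 153 ± 16.9 CPM per kb, followed by BANF1 (140.2 ± 14.2), whose libraries overlapped with those of LMNA. LMNB2 (66.9), EMD (31.8), SUN1 (24.1) and LBR (19.6) came next, each below the range of the gene before it. SUN2 (15.1) overlapped with TMPO (13.0), and TMPO with LMNB1 (10.2). LBR did not overlap with SUN2, nor LMNB1 with LEMD3, which was lowest at 4.23. With siYES1 LMNB1 stood at rank 4, with 47.9 ± 0.97 CPM per kb, above EMD (39.3) and TMPO (32.2), and LBR stood at rank 9 with 10.4, with no overlap between any neighbours.

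In SUM159PT the order with siNS began with LMNA at 121 ± 10.8 CPM per kb, above BANF1 (53.2), EMD (53.2) and LMNB2 (46.1), which overlapped with each other in turn. SUN2 (23.9) and LBR (18.2) overlapped, as did SUN1 (13.3), TMPO (10.3), LMNB1 (7.62) and LEMD3 (7.12) in turn. With siYES1 LMNB1 was at rank 7 with 17.1 ± 0.91 CPM per kb, level with SUN1 (17.1) and above TMPO (13.0) and LBR (10.8). Without siNS replicate 1, EMD (54.9) came before BANF1 (50.7) and LMNB1 (5.90) was at rank 10, below LEMD3 (7.08). With siNS LMNB1 was thus at rank 9 of 10 in MDA-MB-231 and at rank 9 or 10 in SUM159PT, and it stood higher in the order with siYES1.

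The make-up of the lamin messages followed from these values. In MDA-MB-231 LMNA made up 66.5% ± 3.37 of the summed lamin level per kb with siNS (mean ± SD, n = 4), LMNB2 29.1% ± 2.83 and LMNB1 4.46% ± 0.86. With siYES1 the shares were 57.7% ± 0.81, 30.2% ± 0.87 and 12.1% ± 0.28. The LMNB1 share was 3.52% to 5.31% in the siNS libraries and 11.9% to 12.5% in the siYES1 libraries, with no overlap. In SUM159PT the siNS shares were 69.2% ± 5.57, 26.5% ± 3.56 and 4.39% ± 2.03 (71.9% ± 0.93, 24.7% ± 0.87 and 3.37% ± 0.095 without siNS replicate 1, n = 3), and the siYES1 shares 70.03% ± 1.21, 23.6% ± 0.71 and 6.37% ± 0.51. There the LMNB1 share overlapped between the groups, since siNS replicate 1 had 7.44% and the other 3 siNS libraries 3.30% to 3.48%, against 5.98% to 7.08% with siYES1.

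The ratio of LMNB1 to LMNA within a library does not depend on the scaling of libraries. Per length, its log2 value went from -3.92 ± 0.34 with siNS to -2.25 ± 0.04 with siYES1 in MDA-MB-231, and from -4.07 ± 0.69 to -3.46 ± 0.14 in SUM159PT. Between the lines under siNS it differed by -0.15 (SUM159PT minus MDA-MB-231), which was within the spread of the libraries (exact two-sided permutation test, p = 0.743, n = 4 per line, where the smallest p is 0.0286). Without SUM159PT siNS replicate 1 the difference was -0.50 (exact permutation p = 0.0571). That is the smallest p the test can give with that library left out. Most of the spread in SUM159PT thus came from that library.

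**Figure D4:**
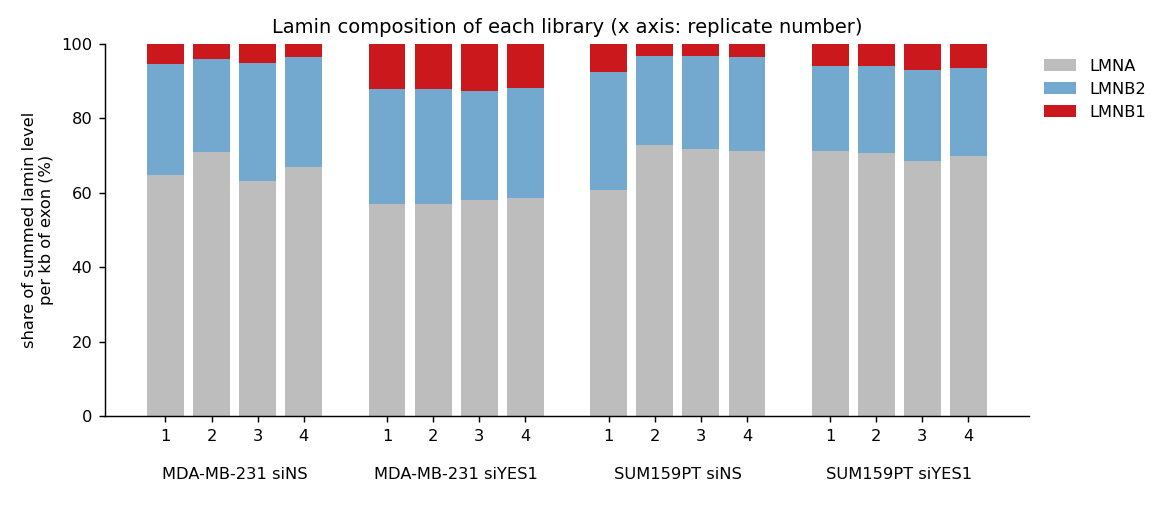
Share of each lamin gene in the summed lamin level per kb of exon (vertical axis, %, 0 to 100) in each of the 16 libraries; the horizontal axis gives the replicate number within each group. The LMNB1 part is 3.52% to 5.31% in MDA-MB-231 siNS libraries and 11.9% to 12.5% with siYES1, and SUM159PT siNS replicate 1 (7.44%) stands out from its group.

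Genes whose profile lay closest to that of LMNB1 were sought among 9616 genes at 5 CPM or more in each line, by the root mean square distance over 16 libraries of log2 CPM (with 0.5 CPM added) from the siNS mean of the same line. The 5 closest were FANCD2 of the Fanconi anemia repair pathway (distance 0.28), ANXA1, the phospholipid-binding annexin A1 (0.31), MTMR6, a phosphoinositide phosphatase (0.32), CDK6, a kinase of G1 progression (0.34), and GEMIN5 of the SMN complex (0.36). Their log2 fold changes were 1.96, 1.95, 1.96, 2.10 and 1.70 in MDA-MB-231 and 0.77, 1.46, 1.01, 1.47 and 1.04 in SUM159PT. None of the 5 encodes an envelope protein. Of the other 9 genes TMPO came closest, at rank 91 (0.66), followed by LMNB2 at rank 269 (0.82) and LMNA at 532 (0.94), and LBR was at rank 9230 (1.86).

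The list counts from here on are to be read beside all genes tested. Of these, 24.9% were called higher and 27.5% lower in MDA-MB-231, and 17.7% and 19.0% in SUM159PT. Without siNS replicate 1, 6237 genes were called in SUM159PT, where 5321 were called with it. The shares called higher and lower are for the fit with every library and TMM scaling. List counts from other fits are given without such a share. A list of 12 further genes held inner nuclear membrane proteins and others linked to them, such as TOR1A, TOR1B and TM7SF2. Of these 12, 5 were called higher, 1 lower and 6 not in MDA-MB-231 (median log2 fold change 0.15). In SUM159PT the counts were 3, 2 and 7 (median -0.05), or 4, 1 and 7 without siNS replicate 1 (median -0.01). TM7SF2, a sterol reductase related to LBR, was lower with siYES1 in both lines, as LBR was: it fell from 29.01 ± 3.27 to 8.20 ± 1.07 CPM in MDA-MB-231 (log2 fold change -1.78 ± 0.12) and from 21.3 ± 5.65 to 5.46 ± 1.20 CPM in SUM159PT (-1.97 ± 0.22, and -1.86 ± 0.20 without siNS replicate 1). NEMP1, an inner membrane protein that binds emerin, rose from 33.1 ± 5.81 to 79.2 ± 2.02 CPM (1.30 ± 0.10) and from 27.4 ± 3.97 to 41.1 ± 3.31 CPM (0.57 ± 0.12, and 0.67 ± 0.10 without siNS replicate 1). With total counts as the scaling, 3 of the 12 were called higher and 6 lower in SUM159PT (median -0.22).

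Of 8 partners in the bridge to the cytoskeleton, 5 were expressed enough to be tested. In MDA-MB-231 2 of them were called higher and 2 lower (median log2 fold change -0.40), and in SUM159PT 1 was higher and 1 lower (-0.17), or 1 and 2 without siNS replicate 1 and 0 and 2 with total counts as the scaling. SYNE2 encodes nesprin-2, a giant protein of the outer membrane that SUN proteins hold. It rose from 38.8 ± 8.66 to 62.2 ± 11.9 CPM in MDA-MB-231 (0.72 ± 0.15) and fell from 526 ± 116 to 335 ± 16.6 CPM in SUM159PT (-0.66 ± 0.13, and -0.81 ± 0.06 without siNS replicate 1), and the difference between lines was called (-1.29 ± 0.22). Its relative SYNE1 (nesprin-1) was called in the opposite directions, at -0.40 ± 0.13 in MDA-MB-231 and 0.38 ± 0.14 in SUM159PT, which are also the directions of SUN1. The SUM159PT call of SYNE1 was lost without siNS replicate 3 (0.33) or 4 (0.37) and without siYES1 replicate 1 (0.34), 2 (0.33) or 4 (0.36), and with total counts as the scaling (0.20). SPAG4, a SUN-domain protein, fell by 1.04 ± 0.16 on the log2 scale in MDA-MB-231 and was at -0.17 ± 0.17 in SUM159PT.

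Farnesylation and cleavage of the lamin tail follow its synthesis. Of 6 genes of farnesylation and cleavage and of prelamin A binding, 2 were called higher and 1 lower in MDA-MB-231 (median 0.14), and 2 higher and 0 lower in SUM159PT (median -0.01). Without SUM159PT siNS replicate 1 the count there was 1 and 0, and with total counts as the scaling 0 and 2. The protease ZMPSTE24 was called in neither line (0.14 ± 0.09 and -0.31 ± 0.15, the latter -0.13 ± 0.09 without siNS replicate 1). FNTB, a farnesyltransferase subunit, rose by 0.49 ± 0.11 in MDA-MB-231, and NARF, which binds prelamin A, fell by 0.34 ± 0.09 on the log2 scale there. FNTA, the other subunit, rose by 0.34 ± 0.08 in SUM159PT (0.31 ± 0.07 without siNS replicate 1). FNTB was not called in SUM159PT (-0.24 ± 0.21 without siNS replicate 1).

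Of 11 genes that take the envelope apart or reseal it, 3 were called higher and 4 lower in MDA-MB-231 (median 0.04) and 4 higher and 0 lower in SUM159PT (median 0.20). In SUM159PT the count was 5 and 0 without siNS replicate 1 (median 0.18) and 1 and 1 when scaled by total counts (median 0.03). VRK1, the kinase that phosphorylates BANF1 at mitotic entry, rose from 25.5 ± 3.57 to 44.7 ± 1.83 CPM in MDA-MB-231 (0.85 ± 0.10) and was not called in SUM159PT (0.07 ± 0.24), but was without siNS replicate 1 (0.47 ± 0.11). CHMP2B, an ESCRT-III subunit of the machinery that closes the envelope, fell by 0.57 ± 0.12 on the log2 scale in MDA-MB-231 and rose by 0.81 ± 0.09 in SUM159PT (0.88 ± 0.07 without siNS replicate 1; difference between lines 1.48 ± 0.17). Of the 3 HP1 genes, whose products bind LBR and heterochromatin, CBX1 and CBX3 rose in MDA-MB-231 (0.60 ± 0.07 and 0.39 ± 0.08). In SUM159PT CBX1 was called higher as well (0.23 ± 0.08), CBX3 was not called (0.20 ± 0.08) and CBX5 fell by 0.52 ± 0.13 on the log2 scale. Without siNS replicate 1 the values there were 0.22, 0.24 and -0.39, all called. The SUM159PT call of CBX1 was lost without siNS replicate 3 (0.22) or 4 (0.19), without siYES1 replicate 1 (0.20), 2 (0.26), 3 (0.25) or 4 (0.21), with no filter (0.24), with the replicate block (0.23) and with total counts as the scaling (0.06).

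Nuclear pore genes were higher with siYES1 in MDA-MB-231, with 27 of 32 called higher, 1 lower and a median log2 fold change of 0.59. NUP107 and NUP43 of the outer ring rose by 0.87 ± 0.10 and 0.85 ± 0.08, and the pore membrane protein NUP210 fell by 0.47 ± 0.10 on the log2 scale. In SUM159PT 10 were called higher and 2 lower (median 0.22), but 24 and 2 without siNS replicate 1 (median 0.33), and 3 and 2 with total counts as the scaling (median 0.04).

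Proliferation genes are set beside these because some lamina genes are known to vary with the cell cycle. All 20 genes of a G2/M list were called higher in MDA-MB-231 (median 1.07) and 18 of 20 in SUM159PT (median 0.91, 20 of 20 without siNS replicate 1 and 16 of 20 with total counts as the scaling), with PLK1, a kinase of mitotic entry, at 1.60 ± 0.07 and 1.53 ± 0.13. Of 20 replication genes, 18 were called higher and 0 lower in MDA-MB-231 (median 0.75), and 1 higher and 6 lower in SUM159PT (median -0.34, and 0 and 7 with total counts as the scaling). Without SUM159PT siNS replicate 1 the replication counts there were 4 and 5 (median 0.05). MCM3, a helicase subunit, and PCNA, the sliding clamp, fell in SUM159PT, by 1.39 ± 0.33 and 0.97 ± 0.27 on the log2 scale, or to log2 fold changes of -0.78 and -0.52 without that library. Of the replication genes called higher without it, RRM2 was at 1.18 ± 0.09 and GINS1 at 0.92 ± 0.17. The summed CPM of the replication list was 1096 in SUM159PT siNS replicate 1 and 515 to 530.0 in the other 3 siNS libraries. The sums of the G2/M list (2300 against 1676 to 1989) and the nuclear pore list (2374 against 2050 to 2101) were highest there too. Of the 10 genes, LMNB1, LMNB2, LBR, TMPO, SUN1 and BANF1 were also highest in replicate 1, and LMNA, EMD and SUN2 were lowest. In RNA from whole cultures, a change in the share of cells at a stage of the cycle and a change in RNA per cell cannot be told apart, and the part of either in the lamina values was not tested.

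**Figure D5:**
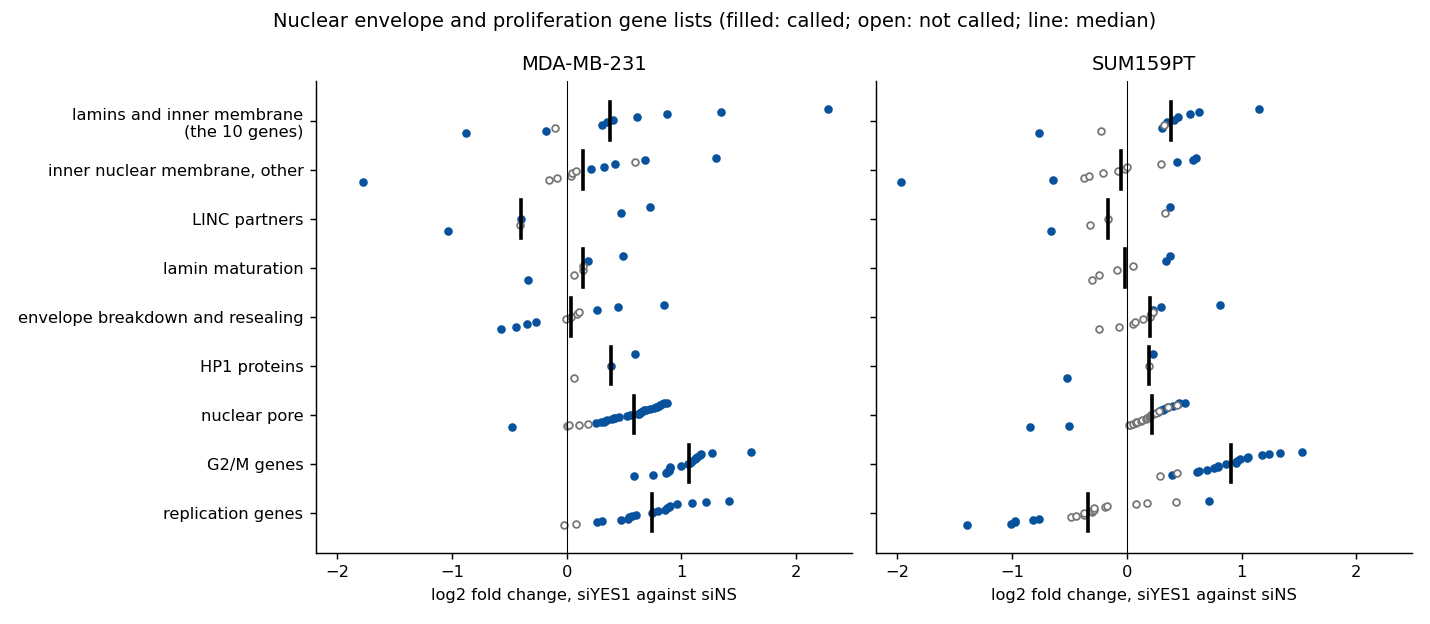
Log2 fold change of siYES1 against siNS (horizontal axes) for the 10 genes, 6 further lists of the nuclear envelope and 2 proliferation lists in each line; each point is a gene, filled where called and open where not, and the vertical bar is the list's median. The G2/M medians are 1.07 and 0.91, and the replication medians are 0.75 in MDA-MB-231 and -0.34 in SUM159PT. Every library is included, also SUM159PT siNS replicate 1.

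Shared reads could touch some of the counts, since whether the counting used strand is not given in the sources used here. TMPO overlaps its antisense transcript TMPO-AS1 over 713 exon bases, which had 766 counts in all 16 libraries against 42553 for TMPO. TMPO-AS1 was called higher in MDA-MB-231 (0.58 ± 0.16) and not called in SUM159PT. The exons of SUN1 overlap GET4 over 1842 bases, those of SUN2 overlap GTPBP1 over 680 bases and those of LMNB2 overlap TIMM13 over 257 bases, and none of these 3 neighbours was called in either line. AC073957.3, antisense to SUN1 over 79 exon bases, had 806 counts in all. It was not called in MDA-MB-231 (0.23 ± 0.25) and was called lower in SUM159PT (-0.87 ± 0.25), where SUN1 was higher. EIF1AD, which starts 97 bases from BANF1 on the opposite strand and overlaps 98 exon bases, was called in neither line. LMNB1-DT, which starts 137 bases from LMNB1 on the opposite strand, had 0 counts in all 16 libraries. MEX3A, which starts 575 bases from LMNA on the opposite strand, fell in both lines, by 1.62 ± 0.17 and 1.21 ± 0.18 on the log2 scale, while LMNA rose. The processed pseudogenes TMPOP1 and TMPOP2 had 18 and 6 counts in all, and of the BANF1 pseudogenes BANF1P3 had 55, BANF1P2 8 and the other 3 had 0, against 53596 for BANF1.

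On GRCh38, in GENCODE 29, the 10 protein-coding genes lie at chr5:126776623-126837020 (LMNB1, ENSG00000113368, plus strand), chr19:2427638-2456996 (LMNB2, ENSG00000176619, minus strand) and chr1:156082573-156140089 (LMNA, ENSG00000160789, plus strand). LBR (ENSG00000143815) is at chr1:225401502-225428925 on the minus strand, TMPO (ENSG00000120802) at chr12:98515512-98550379 and LEMD3 (ENSG00000174106) at chr12:65169571-65248327, both on the plus strand. EMD (ENSG00000102119) is at chrX:154379197-154381523 and BANF1 (ENSG00000175334) at chr11:66002079-66004149, both plus. SUN1 (ENSG00000164828) is at chr7:816615-896435 on the plus strand and SUN2 (ENSG00000100242) at chr22:38734725-38794143 on the minus strand.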

How the data were processed

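Raw integer counts per gene were deposited by the authors, with 1 table for each line. The submitters' processing notes name HISAT2 2.0.5, featureCounts 1.5.0-p3 and hg38. Annotation release and strand setting were not given in the sources used here. Messenger RNA was selected on poly-T beads, per the labels' protocols. All 58735 gene IDs were found in GENCODE 29 (26050 had 0 counts throughout), which gave symbols, exons and coordinates.

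The 10 genes, the gene lists and the tests were chosen with earlier results of these data known. Every fit covered all genes and used edgeR 4.0.16 under R 4.3.3, TMM factors, filterByExpr, the quasi-likelihood F test and Benjamini-Hochberg adjustment. The siYES1 contrasts used the 8 libraries of the line (common biological coefficient of variation 0.0988 in MDA-MB-231 and 0.165 in SUM159PT), the line contrast used the 8 siNS libraries and the difference between lines used all 16. Standard errors come from those fits. Levels are CPM on TMM-scaled library sizes over all 16 libraries. Named beside the 10 were YES1, the 5 genes most like LMNB1 and, for each list and line, up to 2 called genes at 5 CPM or more with the largest change; some of these are not discussed, and ZMPSTE24 and the genes beside the 10 on the chromosome were added after their values were seen. No 2 libraries of a group agreed within sampling noise (lowest chi-squared per degree of freedom 2.21). The scripts were tested on simulated data. Alternatives were RLE and total-count scaling, no filter, a mean of 1 CPM, DESeq2 1.42.0, a replicate block, a joint fit and leaving out each library. The level of 1 marker gene is not reported here.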

Additional observations from a re-analysis of the deposited data

Results flagged for a closer look

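LMNB1 in SUM159PT siNS replicate 1, at 46.5 CPM, lay far from the other 3 libraries of its group (20.7 to 22.2 CPM). This was the only one of 40 combinations of gene and group in which the gap to the nearest library passed Dixon's critical value for 4 values, and chance alone marks about 1 in 20 groups. In that library 6 of the 10 genes were the highest of the group and 3 the lowest, and it held 1096 CPM of replication genes against 515 to 530.0 CPM in the others. Its summed CPM was also highest for the G2/M list (2300 against 1676 to 1989) and the nuclear pore list (2374 against 2050 to 2101). How many of all genes were highest or lowest in it was not counted.

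Between the lines, 3 genes were called for a difference in their log2 fold change with siYES1 by edgeR: LMNB1 (SUM159PT minus MDA-MB-231, -1.03), TMPO (-0.93) and SUN1 (0.63). The siYES1 libraries of SUN1 all lay below the siNS libraries in MDA-MB-231 and above them in SUM159PT. All 3 stayed called, with the same sign, in each of the 22 refits made for them. Of all 16299 genes tested, 24.3% were called for such a difference, so 3 calls among the lamina genes are near that share. The difference shares its libraries with the contrasts that chose the genes and is a description only.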

How the results depend on the processing

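Over 23 settings, 670 refits were made of the 40 values of the 10 genes in 4 comparisons. Of these, 616 kept direction and call, 15 lost the call, 23 gained it and 16 changed sign, and 22 of the 40 values kept both in every refit. The counts of all genes called stayed within 1.5 times of those reported.

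In MDA-MB-231 the number of the 10 genes called lower was 2, and 1 with no filter or with a replicate block (SUN1 lost), and 1 to 2 when a library was left out. In SUM159PT, total-count scaling gave 4 higher and 2 lower. The number with a higher fold change in SUM159PT was 1, and 1 to 2 when a library was left out. For the difference between lines, signs turned under total-count scaling for BANF1 (-0.12), EMD (-0.17), LBR (-0.019) and LMNA (-0.11), and for EMD under DESeq2 (-0.0094) and RLE scaling (-0.00935). Without single libraries EMD took values from -0.060 to 0.103 and LMNA from -0.016 to 0.191, below 0 only without SUM159PT siNS replicate 1. LEMD3 took values from -0.089 to 0.054, and the siNS line difference of LBR from -0.194 to 0.044. None of these values was called, and the cause was not tested. LMNB2 was called for a difference between lines with DESeq2, RLE scaling, no filter and total counts (-0.55 to -0.37). Under siNS, LMNB1 was called between lines with no filter (-0.41), and TMPO with no filter (-0.34) and in the joint fit (-0.31). TMPO in SUM159PT was called with DESeq2, RLE scaling, the joint fit and no filter, and SUN2 in MDA-MB-231 lost its call in the joint fit (0.25).

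Replicate numbers pair nothing here: libraries with the same number did not deviate together (r from -0.12 to 0.03 in MDA-MB-231 and -0.07 to 0.09 in SUM159PT). With the replicate block, 4961 genes were called in SUM159PT and 3545 for the difference between lines in log2 fold change. TMPO was called with siYES1 in SUM159PT (0.35) and between the lines under siNS (-0.31). The LMNB1 to LMNA ratio under siNS differed by -0.15 (exact permutation p = 0.625).

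Of the 44 values of the other named genes, 35 kept their call in every refit. In SUM159PT, FANCD2 (0.58) and FNTA (0.17) lost it under total-count scaling, and NUP210, called at -0.85, without siYES1 replicate 1 (-0.69) or 3 (-0.74).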
